A study of Macaca mulatta with 10 samples.

Results

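The genes described here encode 10 transcription factors that are tied to the identity of type 1 regulatory T (Tr1) cells: MAF, PRDM1, BATF, IRF4, AHR, EOMES, TBX21, BHLHE40, EGR2 and IRF1. They were taken by symbol from the table of counts per gene, which lists 26484 genes, and all 10 had enough counts to be tested, being among the 14168 genes whose 10 libraries summed to 10 counts or more. RNA of Tr1 cells from islet-transplanted rhesus macaques had been sequenced with 1 library per monkey, and the libraries fall into 2 groups of 5 different monkeys. Monkeys of both groups had diabetes induced by streptozotocin, an islet allograft from a donor that shared an MHC class II DRB allele and differed in MHC class I, and a transient course of the anti-CD40 antibody 2C10R4, rapamycin, a soluble TNF receptor and an antibody to the IL-6 receptor. Cohort C was also given apoptotic donor leukocytes (ADLs), donor cells made apoptotic by chemical fixation, and Cohort B was not. Blood mononuclear cells were taken at sacrifice, which the labels place at rejection for Cohort B and at the planned end of the study for Cohort C, so that ADLs and the occasion of sampling cannot be told apart. The study also counts some Cohort B grafts as accepted to that end, so not every Cohort B sample need come from rejection. They were frozen, thawed, rested overnight and sorted as CD4+ CD49b+ LAG-3+, a gate by surface protein that says nothing of the transcription factors.

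Tr1 cells are CD4 T cells that make much IL-10, mostly lack FOXP3 and arise in the periphery after repeated contact with antigen. No single factor is known to define them in the way that FOXP3 defines thymic regulatory T cells, and their program is ascribed to a set of factors that act together. BATF and IRF4 bind DNA as a complex, MAF and AHR bind the IL10 gene together, and PRDM1 (Blimp-1) and EGR2 also promote IL-10. The T-box factors EOMES and TBX21 (T-bet), better known from cytotoxic and Th1 cells, and IRF1, an interferon-induced factor, have also been linked to Tr1 cells, whereas BHLHE40 represses IL10.

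The depth of the libraries ran from 6076 to 1392157 counts in Cohort B and from 66485 to 5895609 in Cohort C. In what follows, values per library are given in the order 13EP12, 13EP8, 14HP26, 14HP31 and 15CP6 for Cohort B and 13EP5, 14HP33, 14HP24, 15CP1 and 15CP4 for Cohort C. A level of 3 counts was taken as the least that a library can show. On the scale of counts scaled to a common library size (CPM) with the TMM scaling of edgeR, that floor lay at 0.623 CPM in 15CP1 and at 119 CPM in 14HP31. Monkey 14HP33 stood apart in that 82.6% of its counts lay on MTRNR2L1, a gene with near-identical copies, which gave it a TMM factor of 0.0725. Of 12 T cell marker genes, 12, 12, 3, 0 and 8 were counted in Cohort B and 12, 2, 7, 12 and 1 in Cohort C, so the sorted cell type was hardly visible in 14HP26, 14HP31, 14HP33 and 15CP4. LAG3, whose protein was part of the sorting gate, had 10 counts in 13EP12, 16 in 13EP5, 12 in 15CP1 and 0 in the other 7 libraries, and ITGA2, which encodes CD49b, had 25, 2, 0, 0 and 0 counts in Cohort B and 4, 0, 0, 37 and 0 in Cohort C.

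All 10 transcription factors were above 3 counts only in the 2 deepest libraries, Cohort C monkeys 13EP5 and 15CP1. In Cohort B, 8, 7, 1, 0 and 6 of the 10 were above 3 counts, and in Cohort C 10, 2, 5, 10 and 3 were. Monkeys 13EP5 and 15CP1 together held between 71.1% and 100% of each gene's counts over the series. Their libraries had 3341503 and 5895609 of the 10408974 counts of Cohort C, and all of Cohort B had 3158657. Much of these shares is thus the share of depth. As a share of all counts of a library, the 10 genes summed to 0.0994%, 0.112%, 0.0299%, 0.0494% and 0.136% in Cohort B and to 0.191%, 0.00268%, 0.107%, 0.131% and 0.284% in Cohort C. The share of 14HP33 is low against a total made up mostly of MTRNR2L1. In TMM-scaled CPM the 10 genes summed to between 119 (14HP31) and 1367 (15CP6) in Cohort B and to between 370.3 (14HP33) and 1992 (13EP5) in Cohort C, and the cohorts overlapped on both scales.

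**Figure D1:**
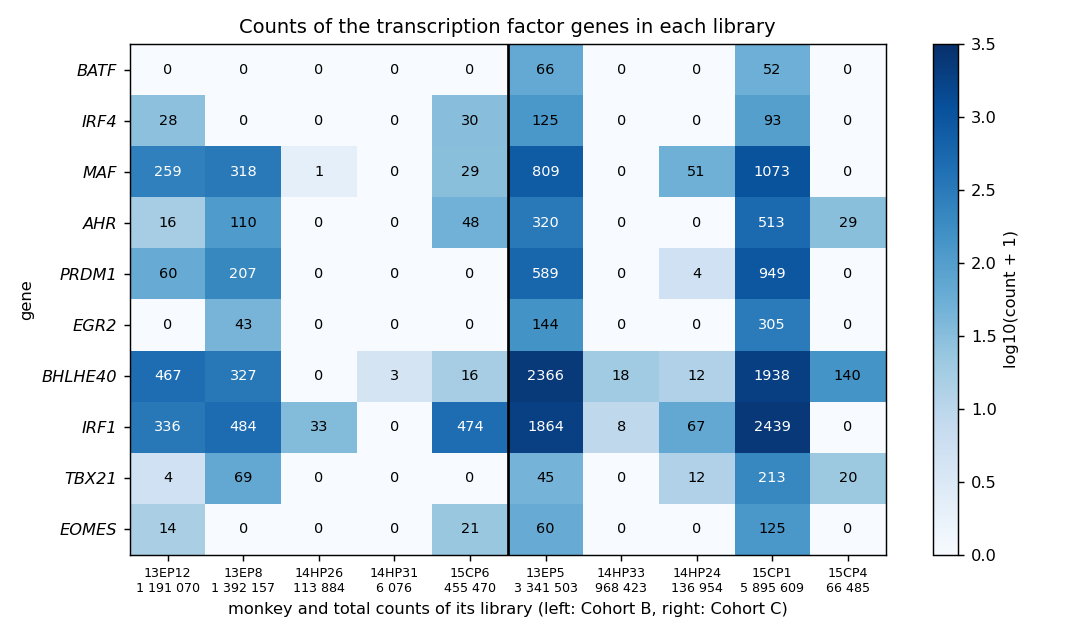
Raw counts of each transcription factor gene (rows) in each library (columns, with total counts under the monkey's name), with Cohort B to the left and Cohort C to the right of the black line; the shade is log10(count + 1). BATF was counted only in 13EP5 and 15CP1, whereas BHLHE40 was above 3 counts in 8 of 10 libraries.

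BATF, the AP-1 family factor that pairs with IRF4, had 66 counts in 13EP5, 52 in 15CP1 and 0 in the other 8 libraries. In CPM these were 20.6 and 10.8. With the libraries of each cohort pooled by their total counts, Cohort C had 11.3 CPM, at least 11.9-fold higher than a floor of 3 counts over all of Cohort B, 0.950 CPM. That bound covers counting error only and rests on 2 of 5 Cohort C monkeys, and without 13EP5 it was 7.75-fold. BATF had passed the filter on low counts only through Cohort C. At the median level of the 2 libraries with counts, 18.1 counts would have come in 13EP12, 20.5 in 13EP8 and 7.09 in 15CP6, but under 3 in each of the other 5 libraries without counts. The absence of BATF was therefore not detectable as such in 14HP26, 14HP31, 14HP33, 14HP24 and 15CP4. In 13EP12, 13EP8 and 15CP6 it was below the level of the 2 Cohort C monkeys as far as counting error goes. These libraries also had zeros where more counts were to come: EGR2 in 13EP12 (51.7), IRF4 in 13EP8 (41.4) and PRDM1 in 15CP6 (71.5). A BATF count of 0 there need not mean a lower level. The adjusted p of BATF was 0.141 in edgeR's quasi-likelihood test, with a fitted log2 fold change of 6.04 that depends on the prior count and is no bound. Exact permutation of log2(CPM + 1) gave a two-sided p of 0.444, and 3 Cohort C monkeys also had 0. With 8 of 10 libraries at 0 that test could give no lower p, so it cannot decide whether the cohorts differ. BATF is one of the genes that the study itself selected from these libraries, so its direction is not independent evidence. Of all genes tested, 13.7% were likewise at 0 in all 5 Cohort B libraries.

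IRF4, the partner of BATF, had counts of 28, 0, 0, 0 and 30 in Cohort B and of 125, 0, 0, 93 and 0 in Cohort C. The 4 libraries with counts had 24.3, 66.4, 39.0 and 19.3 CPM, and in order of level the cohorts alternated. Its log2 fold change, Cohort C over Cohort B, was -0.62 (SE 2.06, adjusted p = 0.9998, edgeR). Monkey 13EP8 had no IRF4 count although 41.4 were to come at the median level of the libraries with counts. Without Cohort B monkey 15CP6 the log2 fold change was 0.74.

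MAF, a bZIP factor that activates IL10, had counts of 259, 318, 1, 0 and 29 in Cohort B and of 809, 0, 51, 1073 and 0 in Cohort C. Where it was above 3 counts it lay within a narrow range but for 1 library, with 225, 243 and 64.2 CPM in Cohort B and 252, 294 and 223 CPM in Cohort C. The 2 Cohort C libraries at 0 were those of 14HP33 and 15CP4. On the log2(CPM + 1) scale MAF was 4.91 ± 3.44 (SD, n = 5 monkeys) in Cohort B and 4.80 ± 4.38 (SD, n = 5) in Cohort C, with a two-sided p of 0.952 by exact permutation. The sign was not settled, as edgeR gave a log2 fold change of 0.50 (SE 1.95, adjusted p = 0.9998) and limma-voom one of -0.33.

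AHR, a receptor for small aromatic ligands that acts with MAF, had counts of 16, 110, 0, 0 and 48 in Cohort B and of 320, 0, 0, 513 and 29 in Cohort C. The 29 counts came from 15CP4, a library of 66485 counts, and equalled 181 CPM, the highest level of AHR in the series. The other levels above the floor were 13.9, 84.1 and 106 CPM in Cohort B and 99.8 and 106 CPM in Cohort C, so the cohorts overlapped. Its log2 fold change was 0.88 (SE 2.04, adjusted p = 0.9998, edgeR).

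PRDM1, which encodes the repressor Blimp-1, had counts of 60, 207, 0, 0 and 0 in Cohort B and of 589, 0, 4, 949 and 0 in Cohort C. It was highest in 15CP1 at 197 CPM and 13EP5 at 184 CPM, followed by Cohort B monkey 13EP8 at 158 CPM. Cohort B monkey 15CP6 had none, where 71.5 counts would have come at the median level. The log2 fold change was 0.90 (SE 2.03, adjusted p = 0.9998, edgeR), with log2(CPM + 1) means of 2.61 ± 3.62 in Cohort B and 3.95 ± 3.81 in Cohort C (SD, n = 5 monkeys each; exact permutation test, two-sided p = 0.603). With 1 library left out the log2 fold change ran from 0.18 (without 13EP5) to 2.41 (without 13EP8). Blimp-1 also drives plasma cell formation, and IRF4 is likewise abundant in plasma cells. The plasma cell marker JCHAIN had 1447 counts in 13EP5, 153 in 15CP1, 89 in 13EP8 and 0 elsewhere. Summed, 5 plasma cell markers had 0 to 89 counts in Cohort B and 0 to 1528 in Cohort C, most of them on JCHAIN. The markers MZB1, TNFRSF17, SDC1 and DERL3 had 70, 8, 3 and 0 counts in 13EP5 and 16, 1, 0 and 0 in 15CP1, so JCHAIN was hardly joined by the others. The part of such RNA in the PRDM1 and IRF4 counts was not tested.

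EGR2, a zinc finger factor induced through the T cell receptor, had counts of 0, 43, 0, 0 and 0 in Cohort B and of 144, 0, 0, 305 and 0 in Cohort C. The Cohort C levels of 44.9 CPM in 13EP5 and 63.3 CPM in 15CP1 were above the 32.9 CPM of 13EP8. No EGR2 was counted in 13EP12, where 51.7 counts would have come at the median level, or in 15CP6, where 20.3 would have. Its log2 fold change was 1.57 (SE 2.11, adjusted p = 0.966, edgeR). This value was decided by 13EP8: without it every Cohort B library was at 0, and the fitted value, then no bound, was 7.69 (edgeR, adjusted p = 0.187).

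BHLHE40, a basic helix-loop-helix repressor, had counts of 467, 327, 0, 3 and 16 in Cohort B and of 2366, 18, 12, 1938 and 140 in Cohort C. It was the only member above 3 counts in all 5 Cohort C libraries, at 738, 256, 69.3, 402 and 875 CPM. The Cohort B levels above the floor were 405, 250 and 35.4 CPM. On the log2(CPM + 1) scale the means were 5.75 ± 3.47 in Cohort B and 8.42 ± 1.46 in Cohort C (SD, n = 5 monkeys each). They differed by 2.67, more than the SD of Cohort C and less than that of Cohort B (exact permutation test, two-sided p = 0.119). The difference was 1.80 with CPM from library sizes only (exact permutation test, p = 0.437) and 1.24 without Cohort B monkey 14HP26. In edgeR the log2 fold change was 1.52 (SE 1.92, adjusted p = 0.946). It stayed positive with each library left out in turn, from 1.06 to 2.12. The antisense gene BHLHE40-AS1 had 22 counts, all in 15CP1. Whether strand was used in counting is not given in the sources used here, so reads of an overlapping pair cannot be told apart.

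IRF1, which activates interferon-response genes, had counts of 336, 484, 33, 0 and 474 in Cohort B and of 1864, 8, 67, 2439 and 0 in Cohort C. With 5705 counts it was the most counted of the 10 genes, and the only one above 3 counts in Cohort B monkey 14HP26. Its highest level, 1049 CPM, was in Cohort B monkey 15CP6, above the 581 CPM of 13EP5 and the 506 CPM of 15CP1. Cohort C monkey 15CP4 had no IRF1 count, where 60.6 would have come at the median level. The log2 fold change, -0.27 (SE 1.88, adjusted p = 0.9998, edgeR), was 0.66 without 15CP6 and 0.05 without 15CP4, the opposite sign. The neighbouring locus on the other strand, C5orf56, had 212 counts in all.

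TBX21, the Th1 factor T-bet, was above 3 counts in 4 of 5 Cohort C monkeys and in 2 of 5 Cohort B monkeys. Its counts were 4, 69, 0, 0 and 0 in Cohort B and 45, 0, 12, 213 and 20 in Cohort C, or 14.0, 69.3, 44.2 and 125 CPM in the Cohort C libraries with counts. Cohort B monkey 13EP8 lay within that range at 52.8 CPM, and 13EP12 lay below it at 3.47 CPM. The means of log2(CPM + 1) were 1.58 ± 2.51 in Cohort B and 4.50 ± 2.76 in Cohort C (SD, n = 5 monkeys each), the widest difference of the 10 genes at 2.92 (exact permutation test, two-sided p = 0.143). With 1 library left out the difference ran from 2.30 without 15CP4 (exact permutation test, p = 0.206) to 4.05 without 14HP33 (exact permutation test, p = 0.0397). Unadjusted, the latter was the only omission of the 10 with a p under 0.05. The log2 fold change in edgeR was 2.02 (SE 2.14, adjusted p = 0.870), and 5.17 without Cohort B monkey 13EP8.

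EOMES, the other T-box factor, had counts of 14, 0, 0, 0 and 21 in Cohort B and of 60, 0, 0, 125 and 0 in Cohort C. These are the same 4 libraries in which IRF4 was above 3 counts. Monkey 15CP6 was highest at 46.5 CPM, followed by 15CP1 at 25.9, 13EP5 at 18.7 and 13EP12 at 12.1 CPM, so the Cohort C values lay between those of Cohort B. EOMES and TBX21 were both above 3 counts in 13EP12 and both at 0 in 14HP26 and 14HP31. They parted in the other Cohort B monkeys, as 13EP8 had 69 counts of TBX21 and 0 of EOMES and 15CP6 had 0 of TBX21 and 21 of EOMES. The log2 fold change of EOMES was -0.38 (SE 2.04, adjusted p = 0.9998, edgeR), and 1.26 without 15CP6. EOMES and TBX21 also mark CD8 T and NK cells, of which 8 markers summed to 275, 144, 0, 0 and 68 counts in Cohort B and to 109, 0, 0, 523 and 0 in Cohort C. Their part in the T-box counts was not tested.

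**Figure D2:**
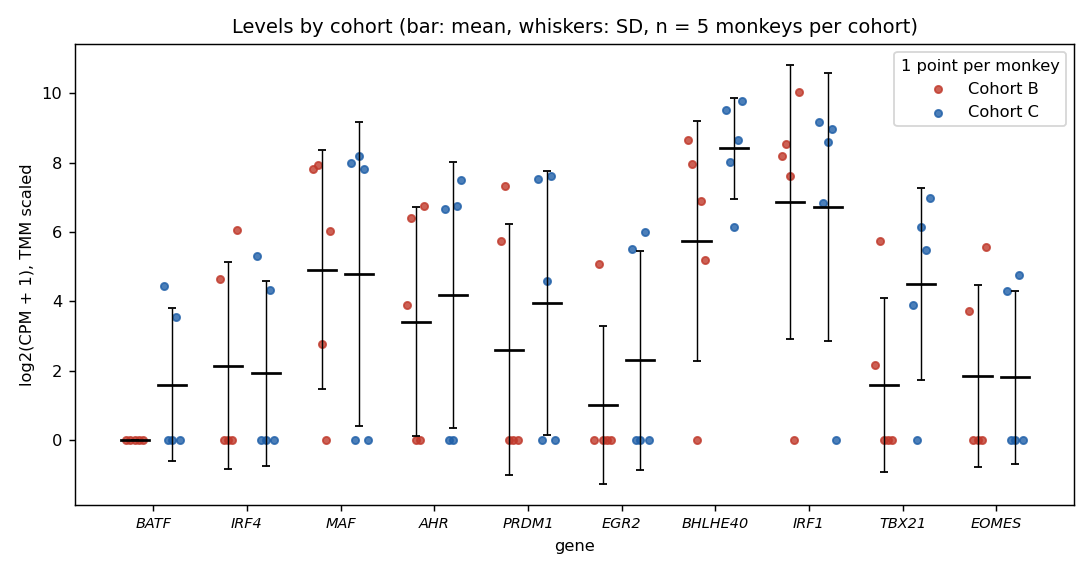
Level of each gene as log2(CPM + 1) (vertical axis) in each monkey (points), with the mean (bar) and SD (whiskers) of the 5 monkeys of Cohort B (red) and of Cohort C (blue). The cohorts overlapped for all 10 genes, and the widest difference of means was that of TBX21, 2.92.

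Across the 10 genes, the comparison of Cohort C with Cohort B found no member past the study's cutoffs in the test used here. The call asked for an unadjusted p under 0.01 and a change of 1.5-fold or more in edgeR's quasi-likelihood test. The study applied these cutoffs with the edgeR feature of another program, and BATF was among the genes it selected. Here BATF had an unadjusted p of 0.0123 (edgeR quasi-likelihood test). The call took in 0 of the 10 genes beside 6.43% of all genes tested, 1.07% with a higher and 5.36% with a lower level in Cohort C. That split was not stable, as the 152 higher and 759 lower genes became 65 and 11 without monkey 13EP5. At an unadjusted p under 0.05 it was 1 of 10, BATF, beside 20.6% of all genes. The other tools run on the counts, DESeq2, limma-voom and edgeR's exact test, called 0 of the 10, beside 0.155%, 0.473% and 0.621% of all genes. They had 0 of the 10 at an unadjusted p under 0.05, beside 1.34%, 2.58% and 3.30% of all genes, shares at which 0 of 10 is no sign of a difference from other genes. By exact permutation 0 of the 10 were under 0.05, beside 0.240% of all genes, and no gene passed after adjustment over all genes. The smallest p that 5 monkeys against 5 can give is 0.00794, but not for genes with many zeros. BATF, at 0 in 8 libraries, and EGR2, at 0 in 7, could not fall under 0.05 in this test. No member had all monkeys of 1 cohort above all those of the other, which held for 0.0141% of all genes. A positive log2 fold change was found for 7 of the 10 genes, beside 53.5% of all genes. The median of the 10 was 0.89, also with BATF at its bound, beside 0.16 over all genes tested. In the libraries of at least 200000 counts outside the MTRNR2L genes the median of the 10 was 0.43, not above the 0.47 over all genes there. IRF1, IRF4 and EOMES, the 3 genes with a negative log2 fold change, were each highest in Cohort B monkey 15CP6. Without it the log2 fold change was positive for all 10, beside 54.0% of all genes. That omission takes out the highest value of each of these 3 genes, so it favours a positive sign. With any other single library left out, 7 or 8 of the 10 were positive.

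**Figure D3:**
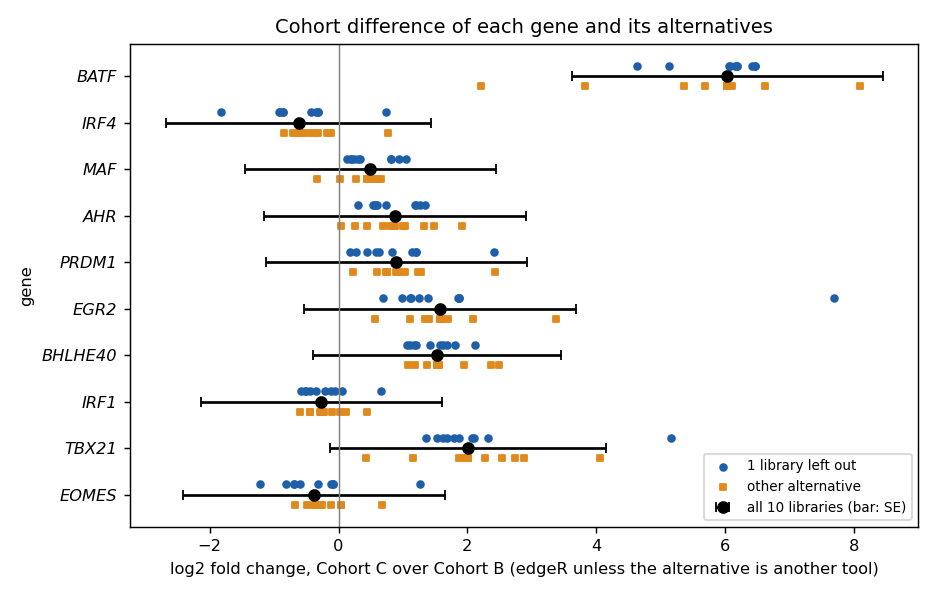
Log2 fold change of each gene, Cohort C over Cohort B (horizontal axis), from edgeR with all 10 libraries (black, bar: SE), with 1 library left out in turn (blue) and under the other alternatives (orange). IRF1, IRF4, EOMES and MAF have points on either side of 0, and the far points of EGR2 (7.69) and TBX21 (5.17) are those without Cohort B monkey 13EP8; fitted values of BATF are no bound, as it was at 0 in Cohort B.

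A count of at least 200000 outside the MTRNR2L genes was reached in the libraries of 5 monkeys: 13EP12, 13EP8 and 15CP6 of Cohort B and 13EP5 and 15CP1 of Cohort C. Among them both Cohort C monkeys were above all 3 Cohort B monkeys for BATF, PRDM1 and EGR2. That is 3 of the 10 genes, close to the 27.0% of all genes for which the same held. PRDM1 was 184 and 197 CPM beside 52.1, 158 and 0, and EGR2 was 44.9 and 63.3 CPM beside 0, 32.9 and 0. The other 7 overlapped and no member was lower in both Cohort C monkeys, beside 1.77% of all genes. BHLHE40 overlapped narrowly, as 15CP1 with 402 CPM was just under 13EP12 with 405 CPM. The edgeR fit to these libraries alone called 0 of the 10, beside 0.814% of all genes. It had 1 of the 10, BATF, at an unadjusted p under 0.05, beside 5.19% of all genes, with an adjusted p of 0.755.

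The makeup of the factors also differed between monkeys of the same cohort. In the 7 libraries with at least 100 counts on the 10 genes, BHLHE40 took from 2.59% (15CP6) to 74.1% (15CP4) of those counts, and IRF1 from 0% (15CP4) to 76.7% (15CP6). MAF took 21.9% in 13EP12, 20.4% in 13EP8 and 4.69% in 15CP6 of Cohort B. In Cohort C it took 12.7% in 13EP5, 13.9% in 15CP1, 34.9% in 14HP24 and 0% in 15CP4. PRDM1 took 5.07% in 13EP12, 13.3% in 13EP8, 9.22% in 13EP5, 12.3% in 15CP1 and 2.74% in 14HP24, and 0% in 15CP6 and 15CP4. Monkeys 13EP5 and 15CP1 were alike for IRF1, at 29.2% and 31.7%, and less so for BHLHE40, at 37.0% and 25.2%. In bulk RNA of sorted cells, fewer cells that express a factor and less of its RNA per cell cannot be told apart.

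**Figure D4:**
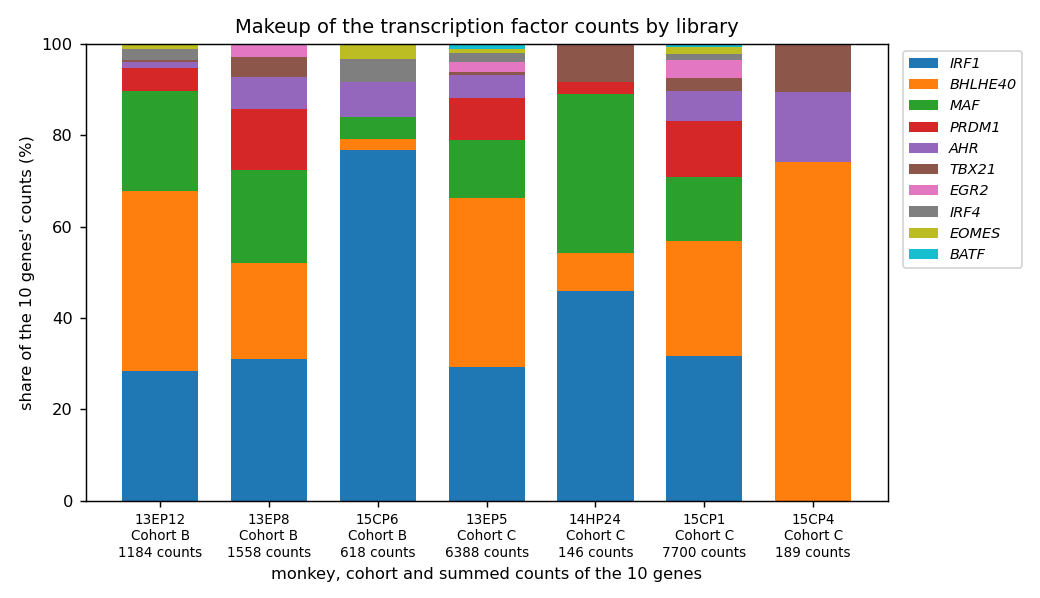
Share of each gene (colour) in the summed counts of the 10 transcription factor genes (vertical axis, %) in the 7 libraries with at least 100 such counts. IRF1 makes up 76.7% in 15CP6 and BHLHE40 74.1% in 15CP4, the libraries with 618 and 189 such counts.

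Levels of different genes can be set side by side only per length, for which the FPKM values were used. In both libraries with all 10 factors the order began with BHLHE40, IRF1, MAF and PRDM1, at 2109, 1193, 395 and 254 FPKM in 13EP5 and at 151, 97.3, 60.5 and 39.0 FPKM in 15CP1. IRF4 came last in both, at 21.6 and 1.67 FPKM. BATF was the fifth in 13EP5 at 223 FPKM and the ninth in 15CP1 at 7.39 FPKM, the widest shift in that order. In CPM it was 20.6 and 10.8 there, and its share of the 10 genes' counts was 1.03% and 0.675%. The part of FPKM estimation in that shift was not tested. Macaque reads were mapped to the human genome, so differences of sequence between the species can lower some genes more than others. The scale is not common to the libraries, as the median gene had 1.83 FPKM per CPM in 13EP5 and 0.270 in 15CP1. FPKM 0 was listed for members that had more than 3 counts: for IRF4 and EOMES in 13EP12 and 15CP6, for IRF1 in 14HP26 and 14HP33, and for AHR and BHLHE40 in 15CP4. An FPKM of 0 is thus no sign of absence. Limma on log2(FPKM + 1) found 0 of the 10 at an unadjusted p under 0.05, beside 0.281% of 10307 genes, and the lowest p of the 10 was that of TBX21 (limma, difference 2.87, adjusted p = 0.992).

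Values at or under the floor were frequent in both cohorts. Of the 50 values of the 10 genes in Cohort B, 28 were at 3 counts or fewer, and in 21 of these the gene's median level elsewhere would have given more than 3. In Cohort C the numbers were 20 of 50 and 15. Many lay in libraries that also lacked genes used by every cell: of 10 housekeeping genes, 8, 9, 4, 1 and 7 were counted in Cohort B and 10, 3, 5, 10 and 5 in Cohort C. EEF1A1, an elongation factor with 73165 counts over the series, had 0 in 14HP26, 14HP31 and 14HP33. The part of this low detection in the zeros of the transcription factors was not tested.

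Among partners and relatives of the 10 factors, 24 of 25 listed genes could be tested. In edgeR 13 had a positive and 11 had a negative log2 fold change, with a median of 0.18. In this list 1 was called higher and 1 lower, beside 1.07% and 5.36% of all genes tested. The one called higher was BATF3, a close relative of BATF, with 12 counts in 14HP33, 14 in 15CP1 and 0 elsewhere. The one called lower was BATF2, with 54 counts in 14HP26, 2 in 13EP5 and 0 elsewhere, so each call rests on 1 or 2 libraries. The most counted of the list were the AP-1 genes JUN, FOS and JUNB, with log2 fold changes of 0.39 (SE 1.76), 0.36 (SE 1.80) and 0.21 (SE 1.84). JUN had 1792, 1996, 13, 0 and 1434 counts in Cohort B and 11429, 2, 355, 11408 and 50 in Cohort C, many times those of BATF. IRF8, a relative of IRF4 known from B cells and dendritic cells, had 204, 109, 0, 1 and 224 counts in Cohort B and 5717, 0, 0, 573 and 89 in Cohort C.

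Factors of other T cell fates gave 0 calls among 20 tested, beside 6.43% of all genes. At an unadjusted p under 0.05 there were also 0, beside 20.6% of all genes (edgeR). These factors had 14 positive and 6 negative log2 fold changes, with a median of 0.15. The most counted were SATB1, LEF1 and IKZF1, factors of naive and resting T cells, with log2 fold changes of 0.10 (SE 1.87), 0.15 (SE 1.90) and 0.04 (SE 1.91). FOXP3, the factor of regulatory T cells, was also counted in this gate, with 55, 15, 0, 0 and 0 counts in Cohort B and 144, 0, 0, 137 and 0 in Cohort C. GATA3 of Th2 cells had 16, 54, 0, 0 and 0 counts in Cohort B and 382, 0, 21, 440 and 0 in Cohort C.

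Of 23 effector and surface genes of Tr1 cells, 19 were tested, with 12 positive and 7 negative log2 fold changes and a median of 0.17 (edgeR). Of the 19, 0 were called, beside 6.43% of all genes tested. IL10, the cytokine on which the 10 factors converge, had 11 counts in 13EP5 and 25 in 15CP1, the libraries in which BATF was counted, and 0 in the other 8 (fitted log2 fold change 4.48, adjusted p = 0.151, edgeR). It was the only gene of this list at an unadjusted p under 0.05, beside 20.6% of all genes. With Cohort B at 0 the fitted value of IL10 is no bound. Both genes were counted only in the 2 deepest libraries. The most counted of the list were TGFB1 (log2 fold change 0.17, SE 1.87), IL6ST (0.61, SE 2.02) and GZMB (1.82, SE 2.09).

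**Figure D5:**
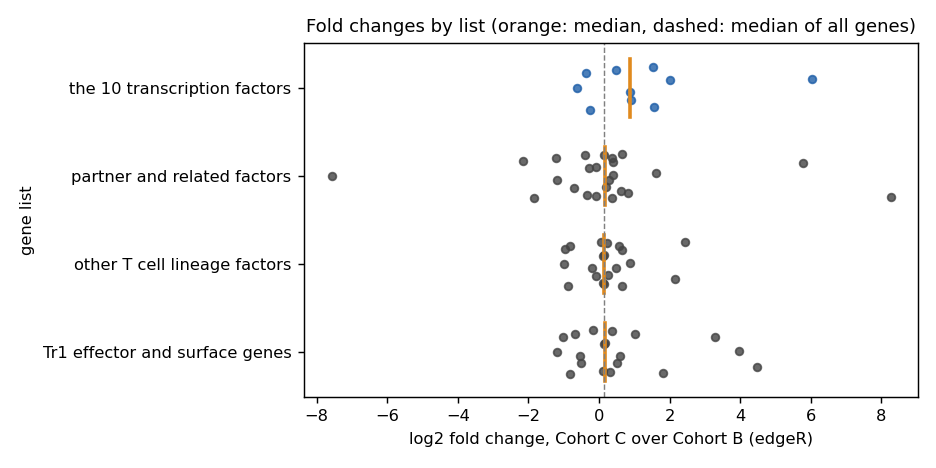
Log2 fold changes in edgeR, Cohort C over Cohort B (horizontal axis), of the 10 transcription factors (blue) and of the tested genes of 3 further lists (grey), with each list's median (orange) and the median of all genes tested (dashed, 0.16). The medians are 0.89 for the 10 factors, 0.18 for partner factors, 0.15 for other lineage factors and 0.17 for Tr1 effector and surface genes; in the libraries of at least 200000 counts outside the MTRNR2L genes that of the 10 factors was 0.43, beside 0.47 for all genes.

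Markers of other blood cells were counted along with the factors. Monocyte markers summed to 1900, 1835, 0, 0 and 463 counts in Cohort B and to 1003, 1, 77, 7600 and 0 in Cohort C, B cell markers to 0 to 135 and 0 to 494, and platelet markers to 0 to 26 and 0 to 885. Over 10 monocyte markers the CPM sums were 0 to 1649 in Cohort B and 0 to 1577 in Cohort C. CD4 T cells are not the only cells with MAF, AHR, IRF1 or BHLHE40, which monocytes also express, and the part of monocyte RNA in their counts was not tested.

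For each member above 3 counts in at least 3 libraries, the genes with the most like pattern were found as those with the smallest mean absolute difference of log2(CPM + 1) over the 10 libraries. For PRDM1 these were DENND4B (0.186) and the T cell gene CD2 (0.207), and for EGR2 they were GPR171 (0.0877) and STRBP (0.0923). IRF4 was nearest to ERGIC1 (0.111) and MTX3 (0.129), and EOMES to TGDS (0.110) and ATG4B (0.147). For MAF they were RANBP6 (0.369) and HP1BP3 (0.452), for AHR GNL3L (0.406) and FAM193A (0.408), and for TBX21 CARNMT1 (0.511) and SART1 (0.578). IRF1 was nearest to TRIP12 (0.543) and HNRNPM (0.575). BHLHE40 had no gene so near, as its nearest were FNBP1 (1.30) and VPS13C (1.33). The smallest distances belong to genes counted in few libraries, where much of the likeness lies in shared zeros: EGR2 was at 0 in 7 libraries and IRF4 and EOMES in 6.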

How the data were processed

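RNA of sorted Tr1 cells from 5 Cohort B and 5 Cohort C monkeys was made into stranded libraries, read with paired ends, and mapped by the authors to the human genome hg38 with HISAT2 2.0.2. The authors deposited raw counts per gene and FPKM values per gene from Cuffdiff 2.2.1. The counting options are not given in the sources used here. Groups were taken from the sample labels. Both tables list 2 symbols more than once, in a date-like form, and these are not named.

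Counts were normalized with TMM and tested with edgeR 4.0.16 in R 4.3.3 (quasi-likelihood test, genes of at least 10 summed counts), with Benjamini-Hochberg adjustment over all genes tested. Standard errors are the log2 fold change divided by the square root of F. Limma 3.58.1 was run on log2(FPKM + 1) where the mean FPKM was 1 or more. DESeq2 1.42.0, limma-voom and edgeR's exact test were alternatives. Single genes were tested on log2(CPM + 1) by exact permutation, with all 252 assignments (scipy 1.17.1, Python 3.11.15). Scripts were tested on simulated data. Total counts ran from 6076 to 5895609, and floors of 3 counts and intervals cover counting error only. A fold against a group at 0 used 3 counts over the group, by library size.

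The members, the gene lists and the tests were chosen with earlier results of these data known. All members are named, with the 2 most alike genes of each, and of each list the 3 most counted. BATF2, BATF3, IRF8, FOXP3, GATA3, IL10, LAG3, ITGA2, JCHAIN, MZB1, TNFRSF17, SDC1, DERL3, EEF1A1, MTRNR2L1, BHLHE40-AS1 and C5orf56 were added after their values were seen. Each monkey gave 1 library, so the tests set differences against the variation between monkeys, sorting and library included.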

Additional observations from a re-analysis of the deposited data

Results flagged for a closer look

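Among the 19 groups of 5 libraries with spread (the genes, taken by cohort), 3 had 1 monkey well apart on the log2(CPM + 1) scale. Chance gives about 1 in 20 groups of values without a floor, a rate that does not apply to these groups with many zeros. For EGR2 in Cohort B, monkey 13EP8 was at 5.08 and the other 4 monkeys at 0, which always gives a gap equal to the whole range, 1. For IRF1, Cohort B monkey 14HP31 was at 0, with a gap of 0.758 of the range, and Cohort C monkey 15CP4 was at 0, with a gap of 0.745. The libraries of 14HP31 and 15CP4 had the fewest counts of their cohorts, 6076 and 66485, and 60.6 counts of IRF1 would have come in 15CP4 at the gene's median level. The part of low detection in these values was not tested.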

How the results depend on the processing

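No member passed the study's cutoffs in any alternative run here. The number of all genes called, 911 of 14168 tested, depended on the setting. Of the same 14168 genes it was 22 with DESeq2, 88 with edgeR's exact test, 67 with limma-voom and 98 with the index suffix of some labels as a covariate. It was 10 of 3414 genes with filterByExpr and 326 of 14134 in libraries of at least 100000 counts. In settings chosen after seeing the data, it was 111 of 13642 in libraries of at least 200000 counts outside MTRNR2L and 27 of 12279 in libraries without that suffix. With 1 library left out it ran from 76 to 695. The split into higher and lower, 152 and 759, was 12 and 10 with DESeq2, 20 and 47 with limma-voom, and 50 and 48 with the suffix as a covariate. FilterByExpr kept 5 members (AHR, BHLHE40, IRF1, MAF and PRDM1). Scaling by library size alone moved the median of all genes from 0.16 to -0.11, and 7 members stayed positive.

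Of 225 log2 fold changes of members from counts under an alternative, 12 had the other sign. IRF1 was 0.023 with DESeq2, 0.45 without suffixed libraries and 0.12 with the replicate block. MAF was -0.33 with limma-voom. EOMES was 0.037 with the suffix as a covariate, 0.040 in the libraries of at least 200000 counts and 0.67 without suffixed libraries, where IRF4 was 0.77. AHR was -0.33 on log2(FPKM + 0.1). The permutation difference of MAF was 0.21 on log2(CPM + 5), and on log2(FPKM + 1) those of MAF, IRF4, EOMES and IRF1 were 1.18, 1.18, 1.81 and 0.78.

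With 1 library left out, log2 fold changes ran from -1.82 to 0.74 for IRF4, from -1.22 to 1.26 for EOMES and from -0.58 to 0.66 for IRF1. Permutation differences ran from -1.34 to 1.09 for MAF, from -1.06 to 0.77 for IRF4, from -0.080 to 1.82 for AHR, from -0.78 to 0.88 for EOMES, from -1.87 to 1.53 for IRF1 and from 2.30 to 4.05 for TBX21 and from 1.24 to 3.40 for BHLHE40. That of BHLHE40 was 0.67 on log2(FPKM + 1).

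The replicate numbers of the labels belong to different monkeys, and same-numbered libraries did not deviate together (correlations from -0.431 to 0.375). With the replicate number as a block, 0 genes were called and 9 had an unadjusted p under 0.05, and 8 members had a positive log2 fold change. As only 1 Cohort B and 2 Cohort C libraries carry the suffix, no comparison was made among them.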
